A study of Homo sapiens with 24 samples.

Results

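Mitochondrial ribosomal protein genes were taken as the protein-coding genes whose symbol is MRPL or MRPS followed by a number. The 3 genome-wide tables held 77 of them among 27431 gene symbols, 49 named for the large subunit (MRPL) and 28 for the small subunit (MRPS). Members were picked by symbol, and the gene group was chosen with earlier results of these data known.

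The mitochondrial ribosome translates the few messenger RNAs that mitochondrial DNA encodes, all of them for subunits of the respiratory chain and ATP synthase. Its ribosomal RNAs come from mitochondrial DNA, but every one of its proteins is encoded in the nucleus, made in the cytosol and imported. Some of these proteins have bacterial relatives, for example at the decoding centre, the peptidyl transferase centre and the factor-binding stalk, and others are found in mitochondria alone. The proteins of MRPS18A and MRPS30 sit in the large subunit in spite of their symbols.

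The RNA came from HER2-positive breast carcinoma lines in which the transcription factor TFAP2C (AP-2gamma) was depleted, and the comparisons ask which transcripts depend on it. SKBR3 and HCC1954 cells were each transfected with an siRNA against TFAP2C, and the controls of the same line with a non-targeting siRNA, with RNA taken after 72 to 96 h. In a further pair of groups, cells labelled HCC1954 carried a lentiviral shRNA against TFAP2C or a negative control shRNA and were kept as stable clones; how many clones entered each group is not given. A table for HCC1569 cells, with the siRNA against TFAP2C and the non-targeting siRNA, listed 68 genes and no mitochondrial ribosomal protein gene. Each group had 3 samples, 24 samples in 8 groups in all, and each genome-wide table compared a pair of groups. The labels do not state whether the samples within a group came from separate cultures, so any p-value may measure technical spread alone, and the submitters state that they did not authenticate the lines.

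Levels are FPKM, read counts scaled to transcript length and to the size of the library, pooled by the authors to 1 value per group. The spread between samples and the depth of each library are therefore unknown, and no standard deviation can be given. For each gene the FPKM of all its transcript entries were summed, and changes are given as the log2 ratio of these sums, knockdown over control. A gene "rose" or "fell" where the authors' own test of its most abundant entry gave a q-value under 0.05. These are bulk cultures, so fewer cells of a kind and less RNA per cell cannot be told apart.

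TFAP2C itself had 53.93 FPKM in SKBR3 siRNA knockdown cells against 157.4 FPKM in their controls, 21.98 against 92.41 FPKM in the HCC1954 siRNA pair, and 3.46 against 81.04 FPKM in the HCC1954 shRNA pair. The shRNA knockdown clones stood apart from the other HCC1954 groups. Over 15065 genes, their levels had a Spearman rank correlation of 0.784 with the control shRNA clones, whereas knockdown and control correlated at 0.971 in the SKBR3 siRNA pair and at 0.950 in the HCC1954 siRNA pair. Their correlation with the HCC1954 siRNA groups, 0.658 with the knockdown and 0.659 with the control, was below that with the SKBR3 siRNA groups, 0.735 with the knockdown and 0.750 with the control. The control shRNA clones had near-equal values for both lines. These were 0.810 and 0.818 with the HCC1954 siRNA knockdown and control, and 0.804 and 0.803 with those of SKBR3. Whether the shRNA knockdown clones are HCC1954, as labelled, was not tested here, and every ratio of the shRNA pair carries that doubt. ERBB2, the amplified gene that defines HER2-positive tumours, had 20.81 FPKM in the shRNA knockdown clones against 1525 FPKM in the control clones, and CDH1 (E-cadherin) had 20.66 against 148.8 FPKM. In SKBR3, CDH1 was near 0, with 0.097 FPKM in the knockdown and 0.0894 FPKM in the control, below its level in the shRNA knockdown clones. ERBB2 in SKBR3 had 609.5 FPKM in the knockdown and 1109 FPKM in the control, far above the shRNA knockdown clones. The keratin KRT19 ran opposite to ERBB2 and CDH1 in the shRNA pair, with 633.7 FPKM in the knockdown clones against 19.95 FPKM in the control clones. It had 1297 FPKM in the knockdown and 2135 FPKM in the control in SKBR3. EPCAM had 160.5 FPKM in the shRNA knockdown clones against 111.9 FPKM in the control clones. Of 6 epithelial markers the summed level ran between 1949 FPKM, in the shRNA knockdown clones, and 7347 FPKM. Of 5 fibroblast markers 4 were under 1 FPKM in all 6 groups, with sums of 0.296 to 1.95 FPKM. Of 3 immune markers PTPRC and CD3E were under 1 FPKM everywhere, and CD68, the other one, reached 36.62 FPKM in the SKBR3 knockdown and 29.49 FPKM in its control. Of 3 endothelial markers VWF and KDR were under 1 FPKM. PECAM1, the other one, had 0.018 FPKM in the shRNA knockdown clones against 11.6 FPKM in the control clones, and 18.51 against 26.96 FPKM in the HCC1954 siRNA pair. The part of these differences in the results on the shRNA clones was not tested.

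The mitochondrial ribosomal protein genes were well expressed in all 6 groups. Their median level was 39.66 FPKM in SKBR3 siRNA knockdown cells and 45.77 FPKM in the controls, against 14.91 and 15.56 FPKM for all genes tested. In the HCC1954 siRNA pair it was 36.93 FPKM in the knockdown and 35.39 FPKM in the control, and in the shRNA pair 49.56 FPKM in the knockdown clones and 37.11 FPKM in the control clones. By the mean over the 6 groups the highest were MRPL51 and MRPL36 of the large subunit at 185.6 and 184.3 FPKM, then MRPS28, MRPS24, MRPS34 and MRPL12 between 134.8 and 127 FPKM. The lowest were MRPL22 at 4.58 FPKM, MRPS11 at 8.07, MRPS18C at 10.78, MRPS5 at 11.43, MRPS18B at 12.15 and MRPS14 at 13.9 FPKM. With 1 pooled value a group it cannot be said which neighbours in this order differ.

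The order was not the same in every line. MRPS28, at 232.2 FPKM in the knockdown and 280.5 FPKM in the control, was the most abundant of the 77 in SKBR3, but had 46.56 and 48.12 FPKM in the HCC1954 siRNA pair, and 90.75 and 110.7 FPKM in the HCC1954 shRNA pair. MRPL36 was highest in the control shRNA clones, at 517.6 FPKM, and MRPL51 in both HCC1954 siRNA groups, at 216.4 FPKM in the knockdown and 214.9 FPKM in the control. These levels come from tables that were normalised separately. The rank correlation of the 77 levels between knockdown and control was 0.977 in SKBR3, 0.989 in the HCC1954 siRNA pair and 0.768 in the shRNA pair.

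**Figure D1:**
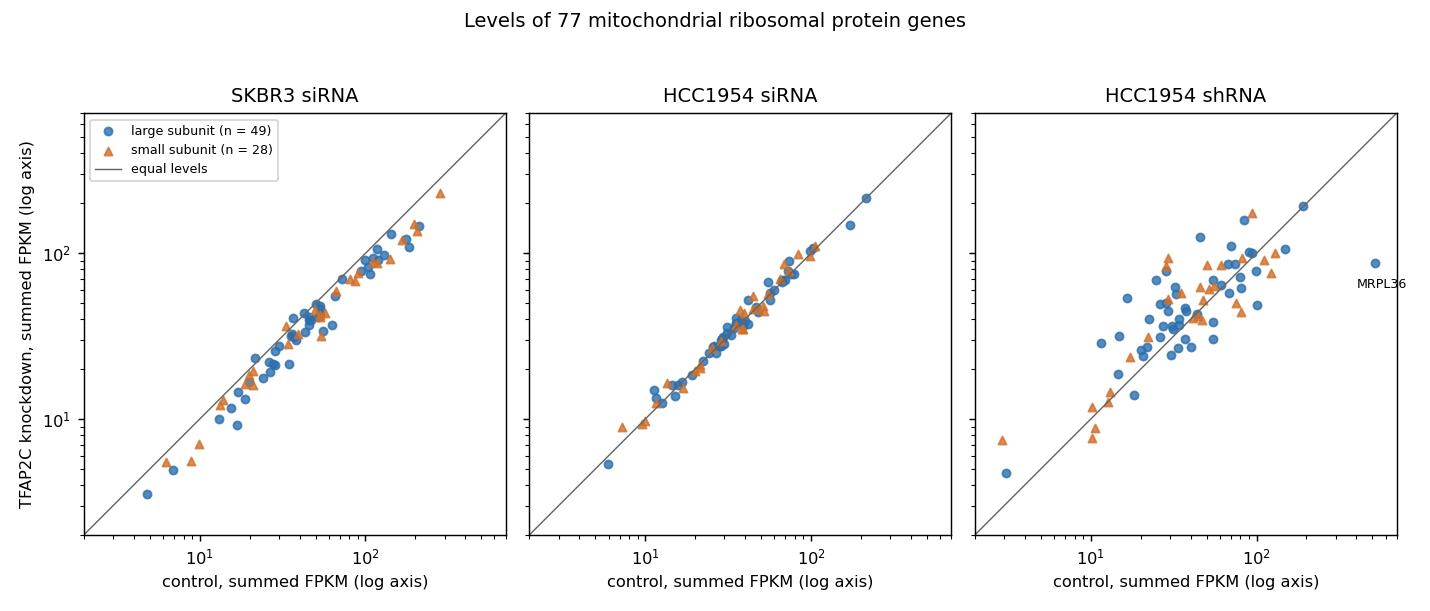
Summed FPKM of the 77 genes in knockdown (vertical, log axis) against control (horizontal, log axis) for the 3 comparisons, large-subunit genes as circles and small-subunit genes as triangles, with the line of equal levels. In SKBR3 nearly all points lie below the line, in the HCC1954 siRNA pair they lie along it, and in the shRNA pair they scatter on both sides, with MRPL36 far below at 87.37 FPKM in the knockdown clones and 517.6 FPKM in the control clones.

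In SKBR3 cells, siRNA against TFAP2C was followed by modestly lower levels of most of these genes. Of 75 genes tested, 30 fell and 0 rose in the authors' deposited table, that is 40% and 0%, against 21% of all 9903 genes tested that fell and 12.3% that rose. At an unadjusted p under 0.05 38 were lower and 0 higher, against 27.5% and 16.1% of all genes tested. The log2 ratio was below 0 for 73 of the 77 genes and ran between -0.87 and 0.15. Its median was -0.31, a 1.24-fold lower level in the knockdown, beside -0.09 for all genes tested. Added together, the 77 genes had 3926 FPKM in the knockdown and 4968 FPKM in the control, or 0.959% and 1.12% of all FPKM.

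Both subunits took part. Of the large-subunit genes 19 of 49 fell (38.8%), with a median log2 ratio of -0.31, and of the small-subunit genes 11 of 26 tested fell (42.3%), with a median of -0.30. The large-subunit genes had 2329 FPKM in the knockdown and 2922 FPKM in the control, and the small-subunit genes had 1597 and 2046 FPKM. The only genes with a log2 ratio above 0 were MRPL9, MRPS10, MRPL45 and MRPL3, and none of them was called. Among the more abundant genes, those at 10 FPKM or more in both groups, 28 of 70 mitochondrial ribosomal protein genes fell (40%), against 23% of 6041 genes.

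The largest decreases of the large subunit were those of MRPL1, MRPL16, MRPL41, MRPL34 and MRPL17. MRPL1, whose protein belongs to the L1 stalk beside the tRNA exit site, had 9.18 FPKM in the knockdown against 16.84 FPKM in the control and fell by 0.87 on the log2 scale (q = 0.000441 in the authors' deposited table, the q of the smallest p these tables give, 5e-05). MRPL16, related to a bacterial protein beside the peptidyl transferase centre, had 36.93 FPKM in the knockdown against 62.78 FPKM in the control. MRPL41, a subunit found in mitochondria alone, had 109.2 FPKM in the knockdown against 183.2 FPKM in the control. MRPL34 and MRPL17, both with bacterial relatives, had 33.94 and 21.53 FPKM in the knockdown against 55.1 and 34.54 FPKM in the control. All of these had the same q of 0.000441 in the authors' deposited table, and their log2 ratios were -0.77 for MRPL16, -0.75 for MRPL41, -0.70 for MRPL34 and -0.68 for MRPL17.

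The abundant stalk gene and the most abundant large-subunit genes fell as well. MRPL12, the protein of the stalk that binds translation factors, had 146.4 FPKM in the knockdown against 210.9 FPKM in the control, a log2 ratio of -0.53. Its stalk partner MRPL10 had 16.69 FPKM in the knockdown against 19.84 FPKM in the control and was not called (q = 0.129 in the authors' deposited table). MRPL51 had 121.7 FPKM in the knockdown against 174.4 FPKM in the control, and MRPL36 had 74.97 against 106.2 FPKM. MRPL12, MRPL51 and MRPL36 fell with a q of 0.000441 each in the authors' deposited table. Further large-subunit genes with enzyme-like or membrane roles were not called. MRPL58, a peptidyl-tRNA hydrolase built into the ribosome, had 39.77 FPKM in the knockdown and 45.46 FPKM in the control. MRPL44, which resembles RNase III, had 25.62 and 28.53 FPKM. MRPL45, which tethers the ribosome to the inner membrane, had 23.24 and 21.42 FPKM.

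In the small subunit MRPS6 changed most, with 31.73 FPKM in the knockdown against 53.77 FPKM in the control, a log2 ratio of -0.76. MRPS26, a subunit found in mitochondria alone, had 92.57 FPKM in the knockdown against 140.3 FPKM in the control (-0.60). MRPS24, related to a bacterial protein at the mRNA entry site, had 137 FPKM in the knockdown against 205.7 FPKM in the control (-0.59). These 3 genes fell with a q of 0.000441 in the authors' deposited table. MRPS12, the protein of the decoding centre, had 87.75 FPKM in the knockdown against 116.6 FPKM in the control and fell with a q of 0.0108 in the authors' deposited table. MRPS30, counted here with the small subunit, had 32.52 against 39.38 FPKM and fell with a q of 0.0326 in the authors' deposited table. Of the 3 MRPS18 paralogs, MRPS18A had 28.23 FPKM in the knockdown and 34.02 FPKM in the control, MRPS18B had 13.04 and 13.84 FPKM, and MRPS18C had 5.47 and 6.26 FPKM. MRPS18A and MRPS18B were not called. The main entry of MRPS18C was not tested by the authors, and another of its entries was not called (q = 0.553 in the authors' deposited table).

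Most calls in SKBR3 were small. Of the 75 genes tested, 8 fell by at least 1.5-fold, against 10.4% of all genes tested, a share near that of the 75. At a q under 0.01, 18 fell in the authors' deposited table, against 15.1% of all genes. Among 36 genes without a named pseudogene and other than MRPS18B, 16 fell (44.4%). The share of all genes tested was 21%, without that filter. Exons of 32 of the 77 genes overlap those of another coding gene, among them MRPL51 with NCAPD2, MRPL34 with ABHD8 and MRPS6 with SLC5A3, and since use of strand is not stated, reads of such pairs may be mixed.

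No searched promoter motif was found in all of the genes that fell. RefSeq windows of 250 bases before and 50 bases after a gene's start (GRCh38.p14) were found for 69 of the 77 genes, and 4 motifs were searched on both strands. The letters CCGGAAG, bound by ETS factors such as GABP, were in 30 of these 69 genes (43.5%), against 16.5% of 15843 coding genes. The letters AAGATGGC, bound by YY1, were in 21 genes (30.4%), against 4.66%. One of these or the other was in 43 genes (62.3%, against 20% of all genes), and both were in 8. The letters GCCNNNGGC of AP-2 factors, the family of TFAP2C, were in 17 genes (24.6%, against 33.6%), and the 10-letter NRF1 motif, in capitals in the first run of the MRPL17 window printed here, in 1 gene (1.45%, against 1.99%). Letters of different motifs overlapped at 1 place, in MRPL53. Among genes that fell in SKBR3 and had a window, 9 of 27 held the ETS letters, 9 of 27 the YY1 letters and 5 of 27 the AP-2 letters. Among those not called, 20 of 40, 12 of 40 and 12 of 40 did. A gene with several windows was counted once, and 85 windows were searched in all. A match says only that the letters are there.

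Upstream windows of 5 genes that fell in SKBR3 are shown because they hold the different letters found. MRPL51 (chr12:6493263-6493512, minus strand) has the ETS letters in both orientations, and its YY1 letters lie past the start, outside the bases shown. MRPL17 (chr11:6683341-6683590, minus strand) is the gene with the NRF1 letters and also holds AP-2 letters. MRPS12 (chr19:38930704-38930953, plus strand) holds the YY1 and the ETS letters. MRPS26 (chr20:3045802-3046051, plus strand) holds AP-2 and ETS letters. MRPL36 (chr5:1799838-1800087, minus strand) holds the YY1 letters. Each runs 5′ to 3′ on the gene's strand, ends at the base before the start, and has the motif letters in capitals.
MRPL51: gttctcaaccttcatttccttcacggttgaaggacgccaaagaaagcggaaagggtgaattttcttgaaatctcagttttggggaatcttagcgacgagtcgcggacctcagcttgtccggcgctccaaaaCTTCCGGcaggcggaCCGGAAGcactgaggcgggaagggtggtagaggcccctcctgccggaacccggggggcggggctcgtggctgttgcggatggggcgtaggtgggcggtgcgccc
MRPL17: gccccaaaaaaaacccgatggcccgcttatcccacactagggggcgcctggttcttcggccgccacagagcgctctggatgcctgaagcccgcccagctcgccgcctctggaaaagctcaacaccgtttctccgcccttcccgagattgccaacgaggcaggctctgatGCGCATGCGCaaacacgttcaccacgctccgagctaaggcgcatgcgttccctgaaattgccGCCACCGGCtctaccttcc
MRPS12: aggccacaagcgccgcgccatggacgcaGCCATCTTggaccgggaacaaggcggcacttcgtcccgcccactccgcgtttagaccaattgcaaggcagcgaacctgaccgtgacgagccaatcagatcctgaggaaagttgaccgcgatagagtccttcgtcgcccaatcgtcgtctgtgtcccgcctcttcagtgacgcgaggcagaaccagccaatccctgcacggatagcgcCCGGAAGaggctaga
MRPS26: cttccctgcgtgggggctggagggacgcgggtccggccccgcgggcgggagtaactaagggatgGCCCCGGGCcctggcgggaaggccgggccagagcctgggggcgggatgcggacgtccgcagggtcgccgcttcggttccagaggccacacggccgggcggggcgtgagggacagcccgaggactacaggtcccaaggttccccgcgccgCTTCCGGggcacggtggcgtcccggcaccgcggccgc
MRPL36: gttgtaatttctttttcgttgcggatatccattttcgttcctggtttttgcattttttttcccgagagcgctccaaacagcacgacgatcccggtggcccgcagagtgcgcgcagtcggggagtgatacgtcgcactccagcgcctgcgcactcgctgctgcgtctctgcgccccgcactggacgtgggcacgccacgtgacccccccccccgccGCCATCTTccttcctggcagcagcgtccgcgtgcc

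In HCC1954 cells, siRNA against TFAP2C left no called difference in these genes. Of 77 tested, 0 rose and 0 fell in the authors' deposited table, against 2.31% and 0.965% of 10773 genes. At an unadjusted p under 0.05, 5 were higher and 1 lower, against 8.12% and 5.24% of all genes tested, and these 6 were MRPL12, MRPL21, MRPL24, MRPL57, MRPS26 and MRPS34. MRPL21 was the lower one. It was counted by an entry with 0.00616 FPKM in the knockdown against 2.519 FPKM in the control, while its other entry had 36.28 FPKM in the knockdown and 36.12 FPKM in the control. The log2 ratios ran between -0.21 and 0.40 with a median of 0.04, beside -0.01 for all genes tested, and 45 were above 0 and 32 below. The median was 0.03 in the large and 0.04 in the small subunit. Together the 77 genes had 3537 FPKM in the knockdown and 3435 FPKM in the control.

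Genes that led in SKBR3 had near-equal levels here. MRPL1 had 22.36 FPKM in the knockdown and 22.3 FPKM in the control, MRPL16 had 28.41 and 29.71 FPKM, and MRPL51 had 216.4 and 214.9 FPKM. MRPL12, MRPL41 and MRPS26 had somewhat higher values in the knockdown, 89.37, 66.84 and 99.41 FPKM against 73.56, 54.64 and 83.4 FPKM in the control, and none was called. A single transcript entry was called. The second entry of MRPL42, whose protein was once assigned to the small subunit, had 0.925 FPKM in the knockdown against 10.36 FPKM in the control (q = 0.0294 in the authors' deposited table). Its first entry had 12.85 FPKM in the knockdown against 4.77 FPKM in the control (q = 0.703 in the authors' deposited table), and the sum over entries was 13.78 against 15.13 FPKM.

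Whether the response to siRNA differed between the lines was tested gene by gene, as the difference of the log2 ratios of the main entries over a standard error taken from the authors' test statistics. The difference passed an adjusted p of 0.05 for 0 mitochondrial ribosomal protein genes, against 0.505% of 8907 genes, and at an unadjusted p under 0.05 it was lower in SKBR3 for 3 genes and higher for 0, against 2.13% and 2.26% of all genes. With the standard error taken from the deposited p-values instead, 14 genes passed, all lower in SKBR3, against 12.4% of genes in either direction. The split by direction was not counted over all genes for this standard error. By the first of these tests a difference between the lines in these genes is not shown, and a p above the threshold does not show that they responded alike.

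**Figure D2:**
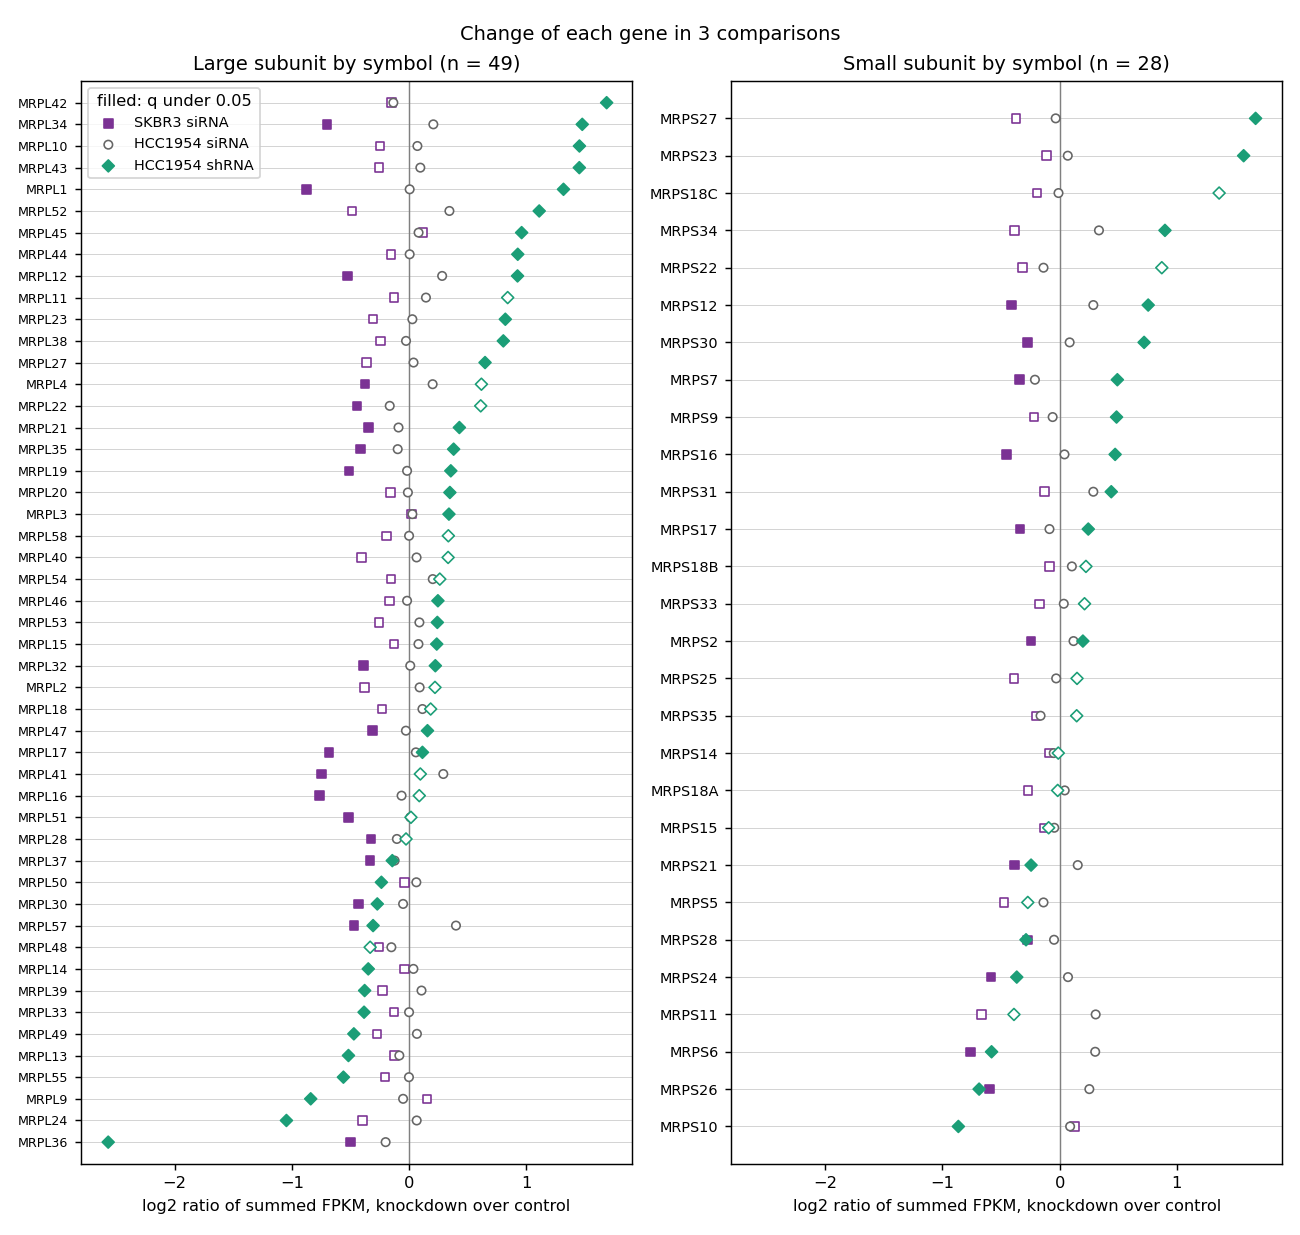
Log2 ratio of summed FPKM, knockdown over control, for each gene (rows, ordered by the shRNA ratio) in SKBR3 siRNA (squares), HCC1954 siRNA (circles) and HCC1954 shRNA (diamonds). Symbols are filled where the authors' q of the main entry was under 0.05. SKBR3 values run between -0.87 and 0.15 and HCC1954 siRNA values between -0.21 and 0.40, while shRNA values run between -2.57 and 1.68.

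In the HCC1954 shRNA clones the genes moved in both directions and by more. Of 74 tested, 34 rose (45.9%) and 19 fell (25.7%) in the authors' deposited table, against 36.3% and 39.2% of 9564 genes, so calls were common among all genes. The median log2 ratio was 0.22, beside -0.03 for all genes tested, with a range of -2.57 to 1.68. At 2-fold or more, with no test, 9 of the 77 sums were higher and 2 lower, against 15.7% and 18.9% of all genes tested. Rises and falls were spread over both subunits: 23 of 48 large-subunit genes rose and 13 fell, with a median of 0.24, and 11 of 26 small-subunit genes rose and 6 fell, with a median of 0.20. The sum over the 77 genes was 4389 FPKM in the knockdown clones and 4204 FPKM in the control clones. It was 2819 against 2846 FPKM in the large subunit, and 1569 against 1358 FPKM in the small subunit.

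Both stalk genes rose. MRPL10 had 77.67 FPKM in the knockdown clones against 28.38 FPKM in the control clones, a log2 ratio of 1.45, and MRPL12 had 158.5 against 83.54 FPKM, a ratio of 0.92. MRPL1 of the L1 stalk had 28.55 FPKM in the knockdown clones against 11.47 FPKM in the control clones (1.32). MRPL34 had 69.14 against 24.85 FPKM (1.48). Each of these 4 rose with a q of 0.000121 in the authors' deposited table, the lowest it gives.

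The membrane tether and the RNase III relative rose too. MRPL45 had 62.97 FPKM in the knockdown clones against 32.39 FPKM in the control clones, and its main entry rose with a q of 0.000237 in the authors' deposited table. MRPL44 had 49.56 against 26.09 FPKM (q = 0.000121 in the authors' deposited table). MRPL58, the peptidyl-tRNA hydrolase, had 46.77 against 37.11 FPKM and was not called. Subunits found in mitochondria alone were among the largest rises. MRPL43 had 125.5 FPKM in the knockdown clones against 45.89 FPKM in the control clones (1.45), MRPL42 had 53.52 against 16.65 FPKM (1.68) and MRPL52 had 31.85 against 14.77 FPKM (1.11). The main entries of MRPL43, MRPL42 and MRPL52 had q-values of 0.000121, 0.00651 and 0.000237 in the authors' deposited table. Exons of MRPL43 overlap those of TWNK on the opposite strand, and TWNK, the mitochondrial DNA helicase, had 41.57 FPKM in the knockdown clones against 8.43 FPKM in the control clones. Their reads cannot be told apart without strand.

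In the small subunit MRPS23 had 83.87 FPKM in the knockdown clones against 28.27 FPKM in the control clones, a log2 ratio of 1.57, and MRPS27, a pentatricopeptide repeat protein, had 93.58 against 29.4 FPKM, a ratio of 1.67. MRPS34 had 174.6 FPKM in the knockdown clones against 93.71 FPKM in the control clones (0.90), and MRPS12 of the decoding centre had 84.95 against 50.34 FPKM (0.76). All 4 rose, with q-values of 0.000349 for MRPS27 and 0.000121 for the others in the authors' deposited table. MRPS30 had 57.94 against 35.17 FPKM and rose (q = 0.000121 in the authors' deposited table). MRPS18A had 40.85 FPKM in the knockdown clones and 41.33 FPKM in the control clones, and MRPS18B had 11.81 and 10.11 FPKM; neither was called. MRPS18C had 7.49 and 2.92 FPKM, and its main entry was not tested. Another of its entries rose, with 6.752 against 2.472 FPKM (q = 0.00311 in the authors' deposited table).

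The falls were led by MRPL36, a gene for a small zinc-binding protein with a bacterial relative (chromosome 5, 1798499 to 1801480, minus strand, GRCh37). It had 87.37 FPKM in the knockdown clones against 517.6 FPKM in the control clones, and fell by 2.57 on the log2 scale (q = 0.000121 in the authors' deposited table). The control clones were the high group: the other 4 groups had between 74.97 and 171.1 FPKM. MRPL24 had 48.55 FPKM in the knockdown clones against 100.3 FPKM in the control clones (-1.05), and MRPL9 had 30.42 against 54.46 FPKM (-0.84). Of the small subunit, MRPS10 had 44.19 against 80.43 FPKM (-0.86), MRPS26 had 75.63 against 121.7 FPKM (-0.69) and MRPS6 had 50.13 against 74.99 FPKM (-0.58). These 5 genes fell, with q-values of 0.0111 for MRPL24, 0.0499 for MRPL9 and 0.000121 for the others in the authors' deposited table. MRPL33 was the only gene with entries called in opposite directions. Its main entry fell, with 35.02 FPKM in the knockdown clones against 66.04 FPKM in the control clones (q = 0.000121 in the authors' deposited table), and its second entry rose, with 27.05 against 14.99 FPKM (q = 0.0437 in the authors' deposited table).

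At 10 FPKM or more in both groups, 34 of 73 genes rose (46.6%) and 19 fell (26%), against 33.9% and 37.3% of 5595 genes. With a change of at least 1.5-fold required, 18 of 74 rose and 8 fell, against 25.7% and 28.6% of all genes tested. Among 36 genes without a named pseudogene and other than MRPS18B, 21 rose (58.3%) and 7 fell (19.4%). The shares of all genes tested were 36.3% and 39.2%, without that filter.

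Comparing SKBR3 siRNA with HCC1954 shRNA, 15 genes fell in SKBR3 and rose in the shRNA clones, against 8.83% of the 8446 genes tested in both. They were MRPL1, MRPL12, MRPL17, MRPL19, MRPL21, MRPL32, MRPL34, MRPL35, MRPL47, MRPS2, MRPS7, MRPS12, MRPS16, MRPS17 and MRPS30, out of 74 tested in both. A further 9 fell in both, namely MRPL30, MRPL36, MRPL37, MRPL57, MRPS6, MRPS21, MRPS24, MRPS26 and MRPS28, against 8.8% of all genes. Since 0 rose in SKBR3, 0 rose in both or rose in SKBR3 and fell in the shRNA clones, against 3.24% and 7.22% of all genes. Another 5, MRPL4, MRPL16, MRPL28, MRPL41 and MRPL51, fell in SKBR3 and were not called in the shRNA clones. There MRPL16 had 64.43 against 60.72 FPKM, MRPL41 100.6 against 94.2 FPKM and MRPL51 194 against 192 FPKM. MRPL4 was not called by its main entry, but its sum was 44.84 FPKM in the knockdown clones against 29.26 FPKM in the control clones. Its lesser entries rose, with 12.93 against 4.068 FPKM (q = 0.000671 in the authors' deposited table) and 8.233 against 5.727 FPKM (q = 0.00227 in the authors' deposited table). MRPL22 fell in SKBR3 and was not tested in the shRNA clones. In the shRNA clones 19 genes rose and 10 fell without a call in SKBR3, and 16 were called in neither. One of these 16, MRPS25, rose in the shRNA clones by a lesser entry, with 8.321 against 5.988 FPKM (q = 0.0364 in the authors' deposited table). No gene was called in all 3 comparisons, since none was called in the HCC1954 siRNA pair.

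The difference of the log2 ratios between the shRNA clones and SKBR3 siRNA passed an adjusted p of 0.05 for 20 genes, 18 higher and 2 lower in the shRNA clones, against 26.9% of 8371 genes. With 74 mitochondrial ribosomal protein genes tested, their share was near that of all genes. The split by direction was not counted over all genes, so the 18 and 2 have no share to be set against. The difference was 2.19 for MRPL1 (adjusted p = 1.15e-05, z test on the authors' statistics, Benjamini-Hochberg over all genes) and 2.18 for MRPL34 (adjusted p = 2.46e-08, same test). It was 1.45 for MRPL12 and 1.68 for MRPS23. The 2 genes lower in the shRNA clones were MRPL36, with a difference of -2.06, and MRPS10, with -0.99. Between the 2 ways of knockdown in HCC1954, shRNA and siRNA, 5 of 74 genes differed, a smaller share than the 13.8% of 8634 genes. MRPL10, MRPL43 and MRPS23 were higher in the shRNA clones by 1.42, 1.4 and 1.5, and MRPL36 and MRPS10 were lower, with differences of -2.37 and -0.95. At an unadjusted p under 0.05 7 were higher and 3 lower, against 8.28% and 14.5% of all genes. Reagent, duration and cloning, and against SKBR3 also the line, differ together between these pairs and cannot be told apart.

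Genes that rose and genes that fell in the shRNA clones held the searched promoter letters as follows. The ETS letters were in 13 of 29 that rose and 5 of 17 that fell. The YY1 letters were in 12 of 29 and 5 of 17, and the AP-2 letters in 8 of 29 and 5 of 17. These counts are a description of the windows, with no test.

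Position on the chromosomes went with the change in the shRNA clones. For each gene the median log2 ratio of its 20 nearest tested genes, coding or not, was taken, 10 on each side. In the shRNA clones a gene's own ratio and that of its neighbours had a Spearman correlation of 0.71 over 73 mitochondrial ribosomal protein genes, and of 0.39 over all 8919 coding genes tested. In SKBR3 the values were 0.14 over 74 genes and 0.10 over 9294, and in the HCC1954 siRNA pair 0.20 over 76 and 0.13 over 9863. Genes near each other share neighbours, so these correlations are descriptions. The part of chromosome position in the calls was not tested.

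**Figure D3:**
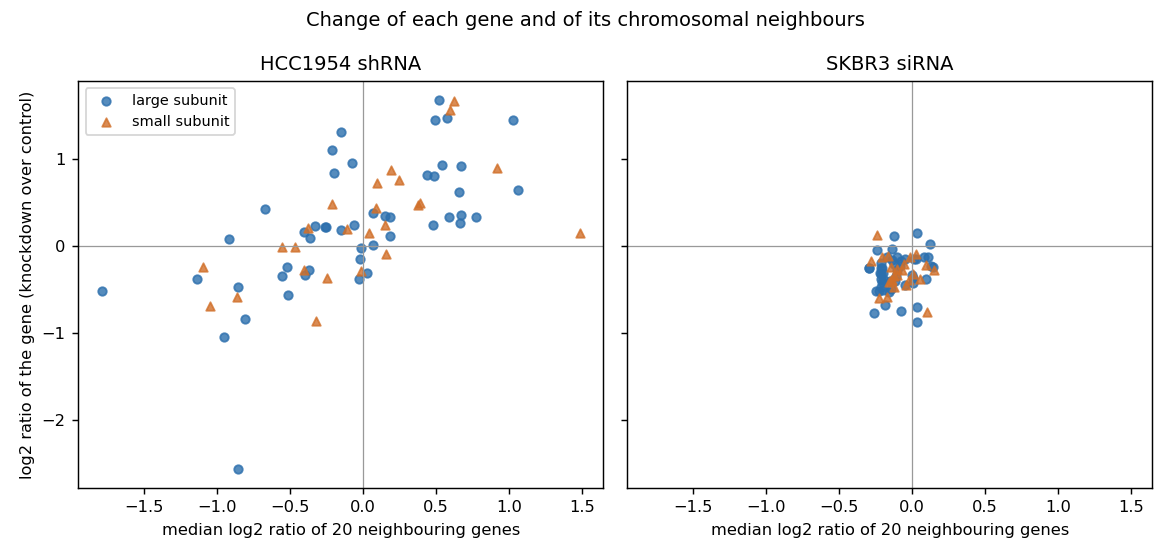
Log2 ratio of each mitochondrial ribosomal protein gene (vertical) against the median log2 ratio of its 20 neighbouring tested genes, coding or not (horizontal), in the HCC1954 shRNA pair and the SKBR3 siRNA pair, large-subunit genes as circles and small-subunit genes as triangles. The shRNA points rise along the diagonal (Spearman 0.71) and the SKBR3 points form a compact cloud below 0 (0.14).

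Chromosome 17 was singled out after the values were seen. All 8 of its genes, MRPL10, MRPL12, MRPL27, MRPL38, MRPL45, MRPL58, MRPS7 and MRPS23, had a log2 ratio above 0 in the shRNA clones, and 7 rose. Their median was 0.86, beside 0.24 for the 619 tested genes of chromosome 17, of which 44.6% rose. In SKBR3 the same 8 had a median of -0.25, and 2 of them, MRPL12 and MRPS7, fell, against 22.6% of all tested genes of chromosome 17. Without chromosome 17 the median of the remaining genes in the shRNA clones was 0.20. On chromosome 1, 5 of 8 genes fell in the shRNA clones and 1 rose, with a median of -0.19. Of all 1009 tested genes there, 44.3% fell and 31.3% rose, with a median of -0.14.

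Most tested genes around MRPL36, at the end of chromosome 5, fell in the shRNA knockdown clones. Its nearest tested neighbour was NDUFS6, a complex I subunit, with 9.6 kb between the midpoints of the 2 genes, which is not the gap between them. NDUFS6 had 63.75 FPKM in the knockdown clones against 328.6 FPKM in the control clones. Further along, TRIP13 had 31.33 against 559.8 FPKM, CLPTM1L had 26.91 against 359.1 FPKM and SDHA, a complex II subunit, had 44.44 against 114.1 FPKM. SLC12A7, between them, rose, with 13.3 against 8.996 FPKM. These neighbours were named after their values were seen.

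Other genes of mitochondrial translation were counted from lists, with calls again by q under 0.05 in the authors' deposited table. Of all genes tested, 21% fell and 12.3% rose in SKBR3, and 0.965% fell and 2.31% rose in the HCC1954 siRNA pair. In the shRNA pair 39.2% fell and 36.3% rose. Each list is to be read beside these shares. Of 6 genes under other symbols, for mitoribosome proteins and the insertase OXA1L, 3 fell (50%) and 0 rose in SKBR3. In the HCC1954 siRNA pair 0 were called, and in the shRNA clones 4 rose (66.7%) and 0 fell. The median log2 ratios were -0.36, -0.01 and 0.44 in this order. OXA1L, the inner membrane insertase that receives nascent chains, fell in SKBR3 with 61.65 FPKM in the knockdown against 93.37 FPKM in the control. CHCHD1 fell with 101 against 134.8 FPKM and GADD45GIP1 with 75.12 against 94.06 FPKM. In the shRNA clones all 3 rose, and PTCD3 had the largest rise, 12.35 FPKM in the knockdown clones against 6.03 FPKM in the control clones. DAP3, the GTP-binding protein of the small subunit, was called in none of the 3 comparisons, with 43.55 FPKM in the knockdown and 52.38 FPKM in the control in SKBR3.

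Of 27 genes for assembly and rRNA modification, 4 of 25 tested fell (16%) and 1 rose (4%) in SKBR3, below the 21% and 12.3% of all genes. In the HCC1954 siRNA pair 0 of 26 were called. In the shRNA clones 14 of 26 rose (53.8%) and 5 fell (19.2%), against 36.3% and 39.2% of all genes. In SKBR3 MPV17L2, a factor of large-subunit assembly, fell to 8.07 FPKM in the knockdown, against 15.53 FPKM in the control. TFB1M, which dimethylates the small rRNA, fell to 2.94 FPKM in the knockdown, against 5.12 FPKM in the control, and in the shRNA clones it had 8.41 FPKM against 2.88 FPKM in the control clones and rose. NGRN was the assembly gene that rose in SKBR3, with 86.59 against 72.06 FPKM.

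A list of 16 genes held translation factors and other genes of mitochondrial translation, among them LRPPRC, SLIRP, RMND1 and MTFMT. Of these, 5 of 14 tested fell (35.7%, against 21% of all genes) and 0 rose in SKBR3. In the HCC1954 siRNA pair 0 of 15 were called. In the shRNA clones 7 of 13 rose (53.8%) and 2 fell (15.4%), against 36.3% and 39.2% of all genes. TUFM, the mitochondrial elongation factor Tu, fell in SKBR3 with 105.1 FPKM in the knockdown against 146.4 FPKM in the control, and rose in the shRNA clones with 128.9 FPKM against 56.34 FPKM in the control clones. GFM1, an elongation factor G, fell in both, with 32.22 against 40.09 FPKM in SKBR3 and 13.9 against 21.55 FPKM in the shRNA pair.

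Genes for expression and copying of mitochondrial DNA were not called in SKBR3 (0 of 10) or in the HCC1954 siRNA pair (0 of 9). In the shRNA clones 4 of 10 rose, 40% and near the 36.3% of all genes, and 2 fell (20%, against 39.2%). POLRMT, the mitochondrial RNA polymerase, had 17.78 FPKM in the knockdown clones against 4.705 FPKM in the control clones. Of 9 regulators of mitochondrial biogenesis, 1 of 8 tested rose in SKBR3 (12.5%, near the 12.3% of all genes) and 0 fell. In the HCC1954 siRNA pair 0 of 7 were called. In the shRNA clones 2 of 7 rose (28.6%) and 1 fell (14.3%), against 36.3% and 39.2% of all genes. The gene that rose in SKBR3 was GABPA, the ETS factor of GABP, with 13.51 FPKM in the knockdown against 10.74 FPKM in the control. In the shRNA clones MYC rose, with 96.3 FPKM against 33.67 FPKM in the control clones, and so did the coactivator PPRC1, with 40.89 against 12.34 FPKM. YY1 fell there, with 56.32 against 60.99 FPKM.

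The products and the cytosolic counterpart of the mitochondrial ribosome were set beside it. Of 84 nuclear genes for the respiratory chain and ATP synthase, 55 of 78 tested fell in SKBR3 (70.5%) and 0 rose, with a median log2 ratio of -0.51, a larger share than the 40% of the mitochondrial ribosomal protein genes. ATP5F1B, the catalytic beta subunit of ATP synthase, had 361.2 FPKM in the knockdown against 681 FPKM in the control, and COX8A of complex IV had 322.7 against 619.6 FPKM. None of 79 was called in the HCC1954 siRNA pair, and 47 of 79 rose and 11 fell in the shRNA clones, with a median of 0.37. Of 88 cytosolic ribosomal protein genes, 19 of 81 tested fell in SKBR3 (23.5%) and 1 rose, with a median of -0.14, a share near the 21% of all genes. In the HCC1954 siRNA pair 0 of 84 were called, and in the shRNA clones 67 of 79 rose (84.8%) and 5 fell, with a median of 0.94, above the 0.22 of the mitochondrial ribosomal protein genes. RPL13A had 910.6 FPKM in the shRNA knockdown clones against 199.4 FPKM in the control clones. Cytosolic ribosomal protein genes have many processed pseudogenes that may share their reads.

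**Figure D4:**
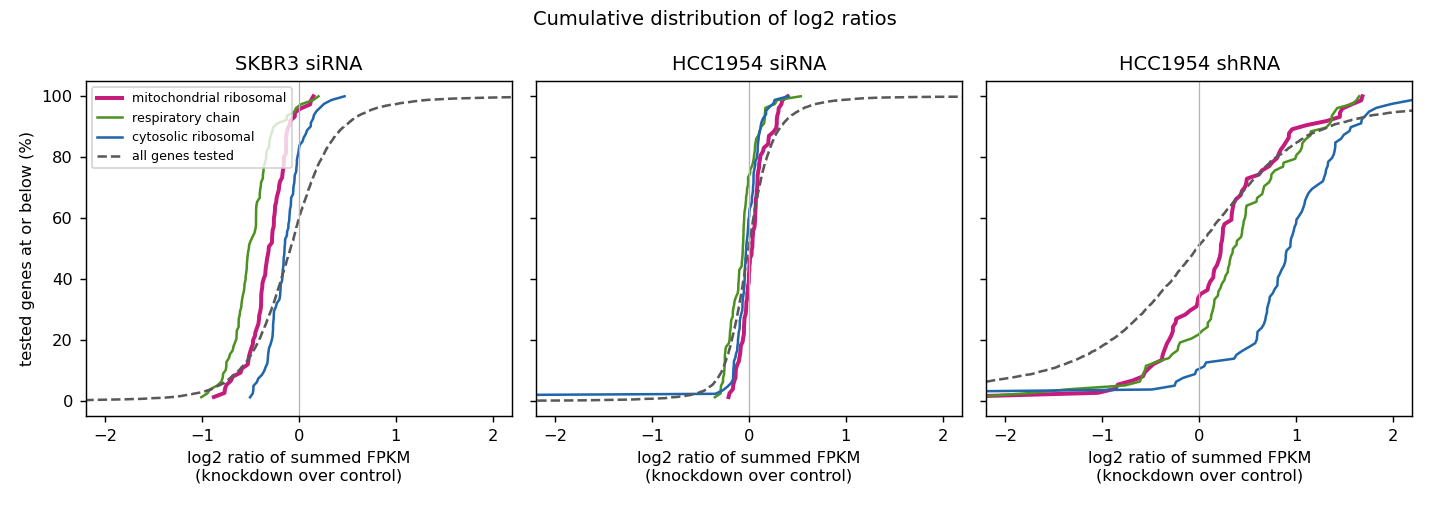
Cumulative share of tested genes (vertical, percent) at or below a log2 ratio of summed FPKM (horizontal, knockdown over control) for mitochondrial ribosomal protein genes, nuclear respiratory chain genes, cytosolic ribosomal protein genes and all genes tested, in the 3 comparisons. In SKBR3 the medians lie at -0.31 for the mitochondrial ribosomal, -0.51 for the respiratory chain, -0.14 for the cytosolic ribosomal and -0.09 for all genes, and in the shRNA pair at 0.22, 0.37, 0.94 and -0.03.

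**Figure D5:**
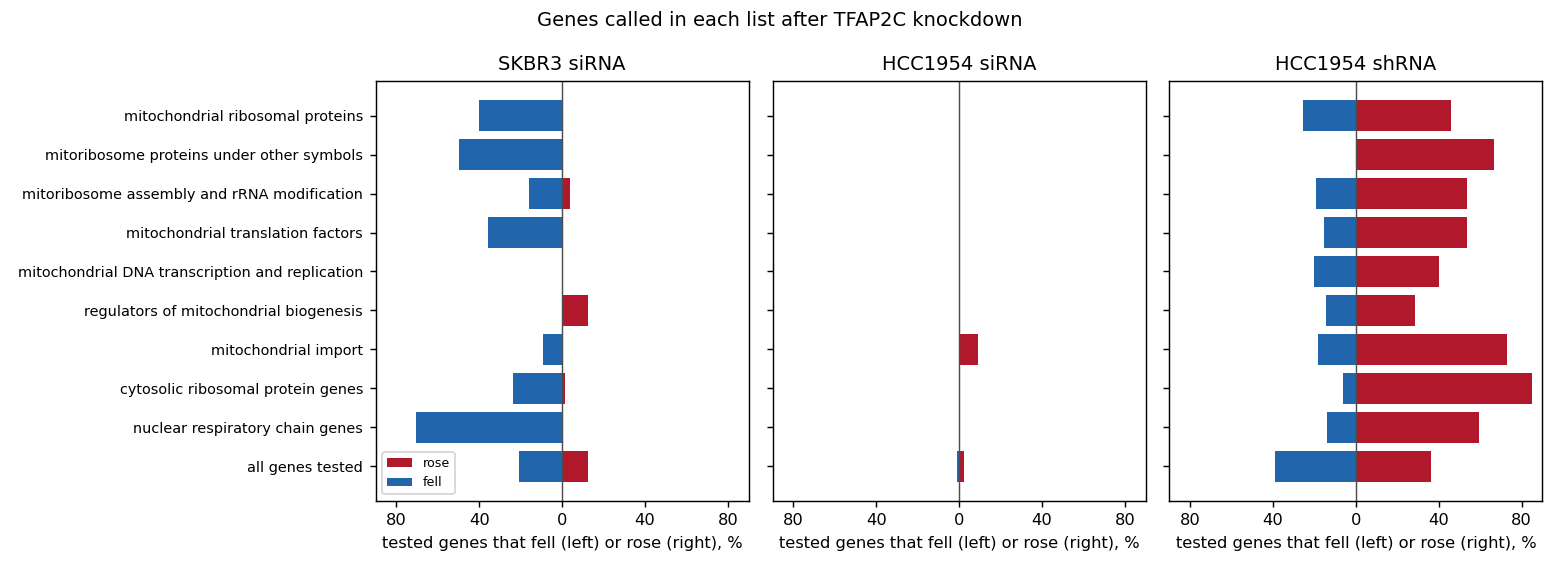
Share of the tested genes of each list that fell (left of 0) or rose (right of 0) by the authors' q under 0.05, in percent, in the 3 comparisons. Mitochondrial ribosomal protein genes fell in SKBR3 (40%) without a rise, were not called in the HCC1954 siRNA pair, and in the shRNA pair 45.9% rose and 25.7% fell.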

How the data were processed

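RNA-seq was made from 24 samples of 3 lines, and the 3 genome-wide tables and 1 short table hold 1 pooled column per group. Per the submitters' processing notes, reads were handled with Bowtie 0.12.2 and Cuffdiff on hg19 (GRCh37); parameters and the annotation version are not given in the sources used here. Per the file headers, the authors deposited FPKM of both groups, a test statistic (a score), a p-value and a q-value for each of 66321 transcript entries. The HCC1954 siRNA table names its groups but not the line, which was taken from the deposited table's own name. RefSeq gene names were found for 65468 entries, and 853 were left out. The 77 members had 182 entries; 36 had 1 entry, and in 46 an entry held at least 90% of the FPKM. FPKM were summed per symbol, and log2 ratios were computed from the sums with no pseudocount. A gene's call is the authors' q of the entry with the highest mean FPKM (threshold 0.05). Differences between comparisons were z tests with the standard error taken as the log2 ratio over the authors' score, adjusted by Benjamini-Hochberg over all genes tested in both. Genes given values were drawn mainly from the 10 largest called changes in each direction and the 6 highest and 6 lowest levels. Others were members called in opposite directions, the largest z, the MRPS18 paralogs and up to 4 called genes of each of 8 further lists. Not every gene under these rules is printed, for example not the called falls of MRPL13, MRPL49 and MRPL55 in the shRNA pair. The members and lists were chosen with earlier results of these data known. The MRPS18B entry lies on an alternative haplotype of chromosome 6, and 41 members have 100 named pseudogenes. Alternatives tried were other q and fold thresholds, low-value filters, a pseudocount, the choice of entry and other standard errors. Analyses used Python 3.11.15, pandas 2.3.3, numpy 2.4.6 and scipy 1.17.1.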

Additional observations from a re-analysis of the deposited data

Results flagged for a closer look

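The log2 ratio, knockdown over control, of the main entry differed between comparisons for the genes below, by the z test with adjustment over all genes. Between the HCC1954 shRNA and the HCC1954 siRNA pair, the difference was 1.42 for MRPL10, 1.4 for MRPL43 and 1.5 for MRPS23, each higher with shRNA. It was -2.37 for MRPL36 and -0.95 for MRPS10, each lower with shRNA. These are 5 of 74 genes tested in both, a smaller share than the 13.8% of all genes.

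Between the HCC1954 shRNA and the SKBR3 siRNA pair, the difference passed for 20 of 74 genes, a share near the 26.9% of all genes. Above 0 for 18 of these 20, the difference was not counted by direction over all genes. In the large subunit it was 2.19 for MRPL1, 2.18 for MRPL34, 1.75 for MRPL43, 1.72 for MRPL10, 1.45 for MRPL12, 1.13 for MRPL23, 1.08 for MRPL44, 1.05 for MRPL38 and 1.01 for MRPL27. It was 0.90 for MRPL35, 0.87 for MRPL19, 0.85 for MRPL16, 0.84 for MRPL41 and 0.80 for MRPL17. In the small subunit it was 1.68 for MRPS23, 1.00 for MRPS30, 0.92 for MRPS16 and 0.83 for MRPS7. It was below 0 for MRPL36, at -2.06, and for MRPS10, at -0.99. Between these pairs line, reagent, duration and cloning cannot be told apart.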

How the results depend on the processing

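Over 109 alternatives to 18 results, no direction reversed, and 98 stayed on the same side of their threshold or within 1.5 times the count. Of the 30 genes that fell in SKBR3, 18 passed a q of 0.01, 8 were at least 1.5-fold, and 16 had no named pseudogene. Of the 34 that rose in the shRNA clones, 18 were at least 1.5-fold and 21 had no named pseudogene; of the 19 that fell there, 8 and 7. In HCC1954 siRNA 1 gene fell when any entry counted. With standard errors from the deposited p-values, 25 genes differed between shRNA and siRNA in HCC1954 (49.3% of all genes). In the same way 14 differed between SKBR3 and HCC1954 siRNA (12.4% of all genes) and 42 between shRNA and SKBR3 (60.7%). The cause was not tested. Leaving out genes with pseudogenes or on chromosome 17, and counting MRPS18A and MRPS30 with the large subunit, were chosen after seeing the data. No paired analysis was possible because the deposited columns hold pooled groups, and leaving out replicates was not run for the same reason. Depth, and so the precision of low levels such as MRPL22, is unknown.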

Other observations

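Mitochondrial import genes, which bring these proteins into the organelle, were counted from a list of 11. In SKBR3 1 of 11 fell (9.09%, against 21% of all genes) and 0 rose. The gene that fell was TIMM17A, with 104.6 FPKM in the knockdown against 137.9 FPKM in the control. In the HCC1954 siRNA pair TOMM20, an outer membrane receptor, was the 1 gene that rose (9.09%, against 2.31% of all genes), and 0 fell. In the shRNA clones 8 rose (72.7%) and 2 fell (18.2%), against 36.3% and 39.2% of all genes. TIMM44 had 19.49 FPKM in the knockdown clones against 6.85 FPKM in the control clones, and TOMM40, the channel protein, fell with 48.7 against 71.55 FPKM.

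Among cytosolic ribosomal protein genes of the shRNA pair, RPL22L1 had 132.2 FPKM in the knockdown clones against 5.96 FPKM in the control clones, and RPS28 had 4.83 against 102.8 FPKM. No mitochondrial ribosomal protein gene moved as far in either direction.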
